A study of Mus musculus with 10 samples.

Results

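The expression of 10 genes that mature beta cells normally keep low was examined in pancreatic islets after a western diet. The genes were Ldha, Slc16a1, Hk1, Oat, Acot7 and Lmo4, which have been described as disallowed in beta cells, and Aldh1a3, Neurog3, Gast and Cck, which have been used as marks of dedifferentiated beta cells. They were taken from the deposited table by their symbols, and all 10 had a row among its 27665 genes. Of these, 8 had enough reads to be tested and 7 were abundant enough to be judged. Slc16a1, Gast and Cck were too low to judge.

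RNA was sequenced from the islets of male mice of the inbred strain C57BL/6J, with no engineered allele named in the labels. There were 5 mice on western diet and 5 on standard chow, with 1 library per mouse. The mice were 8 to 10 weeks old and received their diet for 4 weeks, and the islets were isolated and processed without delay. All chow mice came from cage 3, while 4 western diet mice came from cage 4 and 1 from cage 2, so diet and cage cannot be told apart. The western diet mice are named below by cage and mouse number, and cage 4 and cage 2 each have a mouse 5.

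Islets are clusters of endocrine cells in which insulin-secreting beta cells predominate. Beta cells couple insulin release to mitochondrial oxidation of glucose and hold down enzymes and carriers that would bypass this coupling, such as lactate dehydrogenase A, the lactate and pyruvate carrier MCT1 and the high-affinity hexokinase HK1. Under prolonged metabolic stress, beta cells in mouse models of diabetes can lose insulin and regain features of progenitor cells, a process called dedifferentiation, in which Aldh1a3 and Neurog3 have been reported to rise.

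The start regions of Ldha and Slc16a1 are shown because these genes are the best known disallowed pair, and because a motif bound by MYC and related helix-loop-helix factors lies in both. Each window runs from 250 bases before to 50 bases after the RefSeq transcript start on GRCm38.p6, 5′ to 3′ on the plus strand, with CACGTG in capitals. The Ldha window is chr7:46845554-46845853 and the Slc16a1 window is chr3:104638414-104638713.
Ldha: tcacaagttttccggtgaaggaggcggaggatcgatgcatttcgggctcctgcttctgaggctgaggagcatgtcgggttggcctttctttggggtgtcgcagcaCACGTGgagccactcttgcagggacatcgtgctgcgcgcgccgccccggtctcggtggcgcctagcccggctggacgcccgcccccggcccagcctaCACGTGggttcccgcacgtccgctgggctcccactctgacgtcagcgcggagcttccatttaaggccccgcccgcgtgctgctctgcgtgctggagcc
Slc16a1: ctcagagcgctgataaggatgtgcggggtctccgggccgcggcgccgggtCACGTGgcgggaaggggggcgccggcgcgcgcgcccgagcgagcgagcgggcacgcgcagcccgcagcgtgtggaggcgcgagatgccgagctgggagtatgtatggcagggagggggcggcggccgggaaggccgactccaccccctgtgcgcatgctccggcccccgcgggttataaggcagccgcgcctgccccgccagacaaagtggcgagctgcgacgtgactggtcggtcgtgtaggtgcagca
The motif reads the same on both strands. It began 145 and 48 bases before the Ldha start shown and 200 bases before the Slc16a1 start. RefSeq windows were matched for 9 of the 10 genes, and Aldh1a3 is named only. These genes had 13 windows, of which 3 held the motif. The third was in Cck, where it began 66 bases before the start, and a second Ldha window, at another RefSeq start, did not hold it. Among 32851 promoter windows of mouse genes 7.15% held it. No factor binding was measured here.

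Total counts per library were 1.65e+07 to 2.39e+07. A count of 3 in a library, taken as the limit of detection, corresponded to 0.126 to 0.182 counts per 1000000 reads (CPM). CPM were scaled with TMM factors, which correct library sizes for a few very abundant genes. The labelled tissue carried its defining transcript, since Ins2 averaged 177430 ± 8751 CPM on western diet and 168740 ± 8701 CPM on chow (SD, n = 5 each). Acinar, duct, endothelial and immune markers were also present. In bulk islets, fewer cells of a type and less RNA per cell cannot be told apart.

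All 10 genes were low. Expressed per kilobase of transcript and scaled to library size as for CPM (RPKM), Oat led with a mean of 2.44 ± 0.351 over the 10 libraries (SD). It was followed by Ldha at 2.24 ± 0.547, Neurog3 at 1.82 ± 0.353, Lmo4 at 1.56 ± 0.316 and Aldh1a3 at 1.40 ± 0.576 RPKM. Acot7 averaged 0.828, Hk1 0.742, Gast 0.535, Slc16a1 0.172 and Cck 0.0522 RPKM. The ranges of every pair of neighbours in this order overlapped, so the order of neighbours is not resolved.

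Placed among the 15104 genes tested, Oat stood above 37.7% of them in RPKM, Ldha above 35.8%, Hk1 above 18.3% and Slc16a1 above 3.01%. Genes that do related work stood both higher and as low. Ldhb, which encodes the other main lactate dehydrogenase subunit, averaged 9.99 RPKM and stood above 73.4% of tested genes. Bsg, which encodes the chaperone that carries MCT1 to the cell surface, averaged 245 RPKM and stood above 99.5%. Slc16a7 and Slc16a3, which encode other monocarboxylate carriers, averaged 0.215 and 0.0621 RPKM, and Aldh1a1, another retinaldehyde dehydrogenase, 0.220 RPKM.

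**Figure D1:**
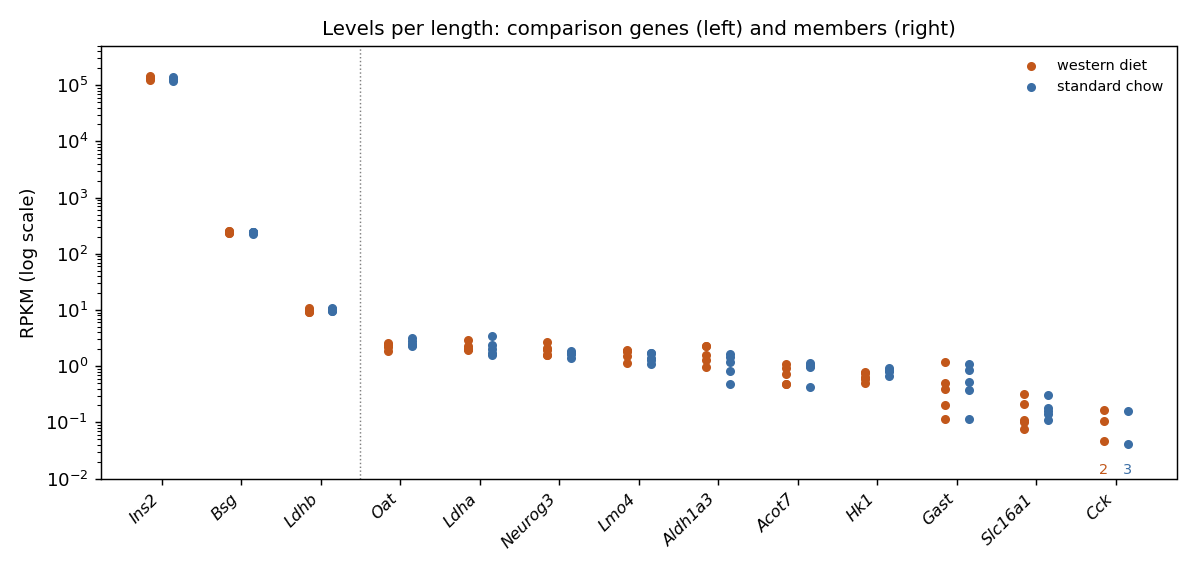
Level per length (RPKM, log scale) of 3 comparison genes, left of the dotted line, and the 10 disallowed or dedifferentiation genes, right of it, with 1 point per mouse, western diet left of chow. Coloured digits at the foot count libraries listed at 0, which a log axis cannot show: for Cck 2 western diet and 3 chow libraries. All 10 genes lie below Ldhb, and Oat and Ldha are the highest of them.

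None of the 8 tested genes passed the test between the diets. The edgeR quasi-likelihood test called 0 of 8 at a Benjamini-Hochberg adjusted p under 0.05, against 10.8% of all genes tested, with 5.27% called higher and 5.5% called lower on western diet. DESeq2 and limma-voom also called 0. At an unadjusted p under 0.05 there was 1, Hk1, against 26.9% of all genes tested. The libraries of the diets separated without overlap for 0 of 8, against 8.85% of all genes tested. The median log2 fold change of the 8 was -0.07 and that of all genes tested 0.01. A missed threshold does not show equal levels, so the interval of each difference is given below.

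**Figure D2:**
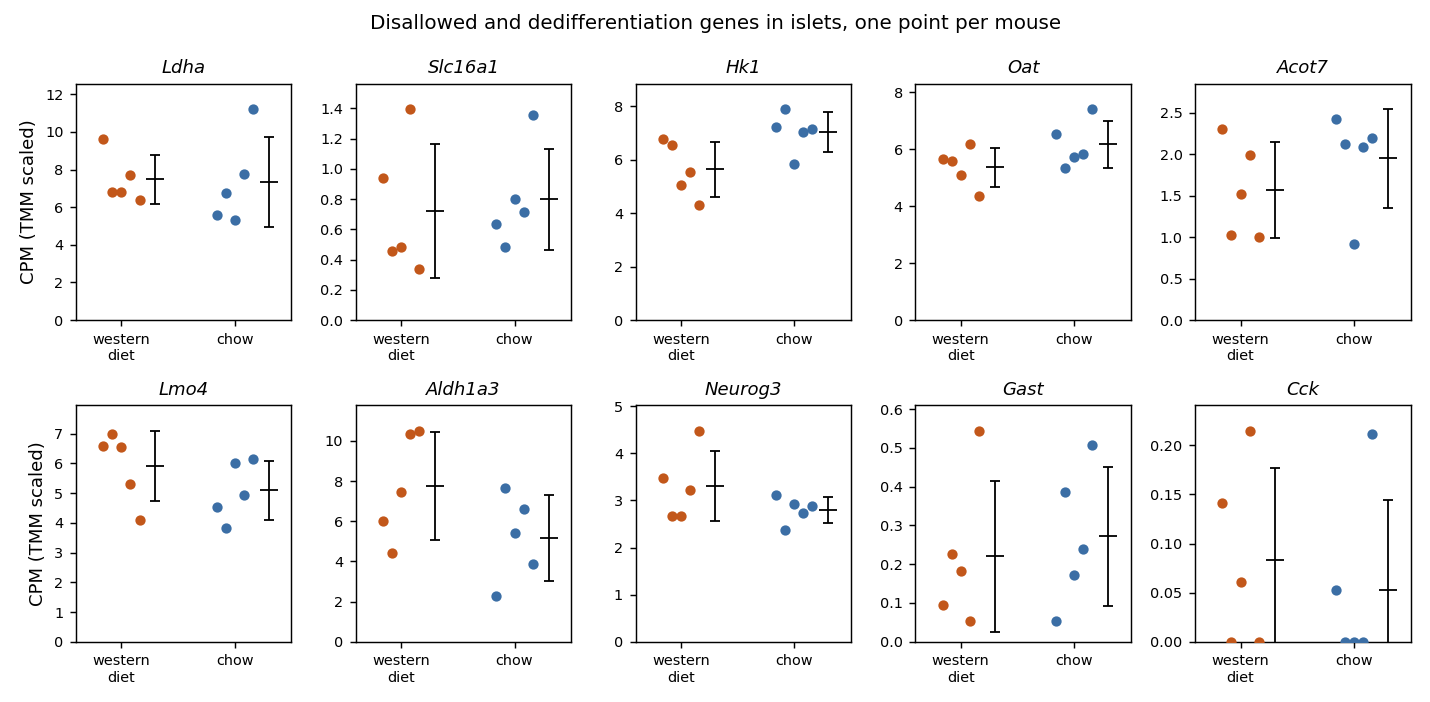
CPM (linear scale from 0, each panel with its own range) of the 10 genes in each library, western diet left of chow, 1 point per mouse, with the mean and SD of 5 mice beside the points (bars end at 0 for Cck). The diets overlap in every panel, and Hk1 has its 3 lowest libraries on western diet.

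Ldha (ENSMUSG00000063229, GRCm38 chromosome 7, 46841475 to 46855627, plus strand) encodes the lactate dehydrogenase subunit that favours the making of lactate from pyruvate. It had 9.63, 6.82, 6.79 and 7.73 CPM in mice 1, 2, 5 and 4 of cage 4 and 6.41 CPM in the cage 2 mouse on western diet, against 5.60, 6.73, 5.32, 7.75 and 11.2 CPM in chow mice 1 to 5. The chow libraries spanned the western diet ones entirely, and 1 chow mouse was the highest of all. Means were 7.48 ± 1.30 CPM on western diet and 7.32 ± 2.38 CPM on chow (SD, n = 5 each), and the log2 fold change was 0.02 ± 0.19 (SE, edgeR adjusted p = 0.955). The 95% interval of the fold ran from 0.771 to 1.34. The sign turned without western diet cage 4 mouse 1 (-0.09) and without chow mouse 1 (-0.07), mouse 2 (-0.01) or mouse 3 (-0.08), so no direction can be given.

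Chow mouse 5, with the highest Ldha, also had the highest summed level of 5 markers of pancreatic polypeptide (PP) and epsilon cells, 4692 CPM. The sums of these markers ranged over 2063 to 3177 CPM on western diet and 1592 to 4692 CPM on chow. Their part in the Ldha values was not tested. Ldha also has 5 processed pseudogenes in GENCODE M21 that match its transcripts over at least 100 bases at 95% identity or more. The longest matches were 1000 bases with Gm9247 and 997 bases with Gm5452. None of these 5 pseudogenes had a row in the deposited table, so no reads are listed for them. Whether reads that match both Ldha and a pseudogene were dropped was not given in the sources used here. The Ldha level and its ratio to Ldhb are uncertain to that extent.

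The balance of the lactate dehydrogenase subunits did not differ between the diets beyond the spread between mice. Per length, Ldha was 23.2% ± 3.91 of Ldhb on western diet, and on chow it was 21.4% ± 5.85 (SD, n = 5 each). Libraries ranged over 19.2% to 28.9% on western diet and 15.6% to 30.7% on chow, and overlapped widely. The log2 ratio of their reads differed by 0.14 (two-sided exact permutation p = 0.492, n = 5 each). The smallest p such a test can give is 0.00794.

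**Figure D3:**
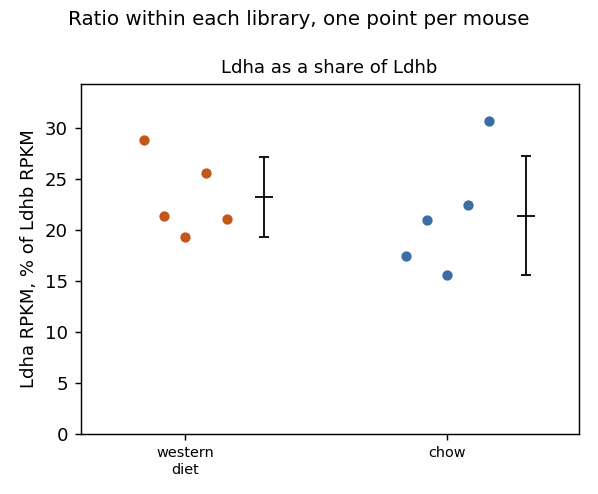
Ldha as a percentage of Ldhb, from RPKM within a library, 1 point per mouse, western diet left of chow, with the mean and SD of 5 mice beside the points. The diets overlap, with means of 23.2% on western diet and 21.4% on chow.

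Slc16a1 (ENSMUSG00000032902, chromosome 3, 104638668 to 104658462, plus strand) encodes MCT1, which carries lactate and pyruvate across the plasma membrane. It had 20, 8, 8 and 26 reads in mice 1, 2, 5 and 4 of cage 4 and 8 reads in the cage 2 mouse on western diet, against 12, 10, 14, 12 and 32 reads in chow mice 1 to 5. These were 0.335 to 1.40 CPM on western diet and 0.484 to 1.36 CPM on chow. All 10 libraries lay above the limit of 3 counts, yet the mean stayed under 1 CPM on both diets, so no fold change is given. The highest western diet library was 4.17 times the lowest.

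Of the other monocarboxylate carriers, Slc16a7, which encodes MCT2, averaged 2.46 ± 0.337 CPM on western diet and 2.63 ± 0.364 CPM on chow (SD, n = 5 each). Slc16a3, which encodes the lactate exporter MCT4, had 16 reads in all on western diet and 49 on chow, and was too low to test. Among 17 tested genes of lactate and pyruvate handling, 0 rose and 1 fell by edgeR, against 5.27% and 5.5% of all genes tested. At an unadjusted p under 0.05 there were 2, against 26.9% of all genes tested. DESeq2 called 0 higher and 2 lower, limma-voom 0 and 1. The gene that fell was Pklr, the pyruvate kinase of liver and beta cells, with 12.8 ± 0.966 CPM on western diet and 16.8 ± 1.31 CPM on chow (SD, n = 5 each, log2 fold change -0.38, edgeR adjusted p = 0.00863).

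Hk1 (ENSMUSG00000037012, chromosome 10, 62268855 to 62379908, minus strand) encodes a hexokinase that is saturated at low glucose and would let beta cells burn glucose below the normal threshold for insulin release. It had 6.76, 6.54, 5.03 and 5.53 CPM in mice 1, 2, 5 and 4 of cage 4 and 4.31 CPM in the cage 2 mouse on western diet, against 7.23, 7.89, 5.83, 7.04 and 7.16 CPM in chow mice 1 to 5. The 3 lowest libraries were all on western diet, and the groups overlapped through chow mouse 3. Means were 5.64 ± 1.03 CPM on western diet and 7.03 ± 0.748 CPM on chow (SD, n = 5 each).

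The log2 fold change of Hk1 was -0.32 ± 0.14 (SE), with a 95% interval of the fold from 0.652 to 0.981. Its unadjusted p was 0.0335 and its edgeR adjusted p 0.145, so it did not pass the test. In the authors' deposited table its unadjusted p was 0.0360 and its adjusted p 0.156. Over the alternatives its adjusted p ranged over 0.104 to 0.287 and its sign stayed negative. The unadjusted p was under 0.05 in 15 of 19 alternatives, which share most of their data. Without the cage 2 mouse it was not, and the log2 value was -0.23 (edgeR unadjusted p = 0.107).

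The summed level of 13 duct markers was 783 to 911 CPM on western diet and 947 to 1114 CPM on chow, without overlap, and the cage 2 mouse had the lowest value of both Hk1 and this sum. Of 12 tested duct markers 0 rose and 3 fell, Krt19, Krt8 and Muc1 (edgeR), against 5.27% and 5.5% of all genes tested. By edgeR 5 of the 12 had an unadjusted p under 0.05, against 26.9% of all genes tested. Krt8 had 186 ± 22.1 CPM on western diet and 333 ± 74.2 CPM on chow, and Krt19 0.570 ± 0.307 CPM on western diet and 3.58 ± 1.87 CPM on chow (SD, n = 5 each). Most of the gap in the sum lay in Krt8. Without it, the sum was 619 to 697 CPM on western diet and 657 to 699 CPM on chow, and the diets overlapped. This alternative was chosen after seeing the data. Abundant markers make up most of either sum, so low ones such as Krt19 and Muc1 could hardly move it. The abundant duct markers Krt7 and Epcam were not called, with 235 ± 4.02 and 128 ± 5.39 CPM on western diet and 225 ± 12.1 and 129 ± 12.1 CPM on chow. The Muc1 call did not hold with any of western diet cage 4 mouse 1 or 2, the cage 2 mouse and chow mouse 1 or 5 left out. The part of duct cells in the Hk1 values was not tested. An antisense gene, Hk1os, overlaps Hk1 exons by 157 bases but averaged only 0.0281 CPM on western diet and 0.0339 CPM on chow.

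Hk2 and Hk3, the other high-affinity hexokinases, each averaged under 1 CPM and were not tested. Of the 6 listed hexokinases and related genes 2 were tested, and 0 were called by edgeR, DESeq2 or limma-voom, with 0 at an unadjusted p under 0.05.

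Oat (ENSMUSG00000030934, chromosome 7, 132557478 to 132576398, minus strand) encodes ornithine aminotransferase, a mitochondrial enzyme that turns ornithine into a precursor of proline and glutamate. It had 5.64, 5.57, 5.09 and 6.17 CPM in mice 1, 2, 5 and 4 of cage 4 and 4.35 CPM in the cage 2 mouse on western diet, against 6.55, 5.33, 5.72, 5.84 and 7.41 CPM in chow mice 1 to 5. The highest 2 libraries were on chow and the lowest 2 on western diet, with overlap between. The log2 fold change was -0.21 ± 0.14 (SE, edgeR adjusted p = 0.355), with a 95% interval of the fold from 0.710 to 1.06. The estimate was -0.13 both without the cage 2 mouse and without chow mouse 5. The highest library had 1.70 times the lowest, the smallest such ratio among the 9 of the 10 genes with reads in every library.

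Of 11 tested genes of ornithine and proline metabolism, 2 rose and 2 fell by edgeR, against 5.27% and 5.5% of all genes tested. DESeq2 called 2 higher and 2 lower and limma-voom 1 higher and 2 lower. By edgeR 4 of the 11 had an unadjusted p under 0.05, against 26.9% of all genes tested. Odc1, which encodes ornithine decarboxylase, the first enzyme of polyamine synthesis, had 113 ± 5.44 CPM on western diet and 156 ± 15.7 CPM on chow (SD, n = 5 each, log2 fold change -0.47, edgeR adjusted p = 2.3e-04). Glul, which encodes glutamine synthetase, had 461 ± 47.1 CPM on western diet and 566 ± 14.2 CPM on chow (log2 fold change -0.30, edgeR adjusted p = 0.00561). Of the genes that rose, Aldh18a1 encodes an enzyme of the first step of proline synthesis (log2 fold change 0.23, edgeR adjusted p = 0.0489). It lies outside the rule for named genes and was chosen after its values were seen. Its call, close to the threshold, was not followed over the alternatives.

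Acot7 (ENSMUSG00000028937, chromosome 4, 152178134 to 152271855, plus strand) encodes a thioesterase that frees long-chain fatty acids from coenzyme A. It had 2.30, 1.02, 1.52 and 1.99 CPM in mice 1, 2, 5 and 4 of cage 4 and 1.00 CPM in the cage 2 mouse on western diet, against 2.43, 2.13, 0.915, 2.09 and 2.20 CPM in chow mice 1 to 5. On chow 4 libraries lay close together and mouse 3 stood apart below them, lower than every western diet library. The log2 fold change was -0.32 ± 0.29 (SE, edgeR adjusted p = 0.515), with a 95% interval of the fold from 0.522 to 1.22. Leaving out mouse 1 of cage 4 gave -0.51, chow mouse 3 -0.50, mouse 2 of cage 4 -0.21 and the cage 2 mouse -0.19. Each library held 16 to 52 reads of the gene. Of 9 other acyl-CoA thioesterases tested, edgeR called 0, against 10.8% of all genes tested. At an unadjusted p under 0.05 there was 1, against 26.9% of all genes tested. DESeq2 and limma-voom each called 1 thioesterase higher. The one with the lowest p by edgeR was Them4, with 6.54 ± 0.418 CPM on western diet and 5.06 ± 0.414 CPM on chow (SD, n = 5 each, edgeR adjusted p = 0.0542, called in 4 of 19 alternatives).

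Lmo4 (ENSMUSG00000028266, chromosome 3, 144188530 to 144205220, minus strand) encodes a LIM-only protein that binds LDB1, the cofactor of LIM transcription factors such as the islet factor ISL1. It had 6.58, 7.0, 6.55 and 5.32 CPM in mice 1, 2, 5 and 4 of cage 4 and 4.10 CPM in the cage 2 mouse on western diet, against 4.54, 3.82, 6.00, 4.95 and 6.14 CPM in chow mice 1 to 5. The highest 3 libraries were on western diet, but the cage 2 mouse had the second lowest value of all. The log2 fold change was 0.21 ± 0.17 (SE, edgeR adjusted p = 0.459), with a 95% interval of the fold from 0.904 to 1.48. Without the cage 2 mouse it was 0.32 (edgeR adjusted p = 0.206), and without chow mouse 2 it was 0.12 (edgeR adjusted p = 0.703). Among 11 LIM-only genes and partners tested, 0 rose and 1 fell, against 5.27% and 5.5% of all genes tested. An unadjusted p under 0.05 was seen for 2 of the 11 (edgeR), against 26.9% of all genes tested. The gene that fell was Ssbp4, which encodes a single-stranded DNA-binding protein of the LDB1 complex. It had 64.9 ± 3.74 CPM on western diet and 76.7 ± 4.07 CPM on chow (SD, n = 5 each, edgeR adjusted p = 0.00893).

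Aldh1a3 (ENSMUSG00000015134, chromosome 7, 66390890 to 66427517, minus strand) encodes a retinaldehyde dehydrogenase that makes retinoic acid and marks failing beta cells in diabetic mice. It had 6.01, 4.44, 7.46 and 10.4 CPM in mice 1, 2, 5 and 4 of cage 4 and 10.5 CPM in the cage 2 mouse on western diet, against 2.27, 7.65, 5.43, 6.62 and 3.85 CPM in chow mice 1 to 5. The 2 highest libraries were on western diet and the 2 lowest on chow, with the other 6 interleaved. Means were 7.76 ± 2.67 CPM on western diet and 5.16 ± 2.15 CPM on chow (SD, n = 5 each).

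The log2 fold change of Aldh1a3 was 0.60 ± 0.34 (SE, edgeR adjusted p = 0.296), the largest point estimate in size among the 7 genes that could be judged, and it did not pass the test. Its 95% interval of the fold, 0.894 to 2.55, is too wide to settle the size. The estimate ranged over 0.40 to 0.79 across the alternatives and the adjusted p over 0.167 to 0.476. The unadjusted p was 0.110 by edgeR. It was under 0.05 in 3 of 19 alternatives, among them limma-voom (0.0410). The lowest and the highest of the 10 libraries differed 4.63-fold.

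Other retinoid genes gave few measurable partners. Aldh1a1 had 10 to 32 reads per library on western diet and 5 to 74 on chow. Of 14 listed retinoid genes 7 were tested, 0 rose and 1 fell, against 5.27% and 5.5% of all genes tested. An unadjusted p under 0.05 was seen for 1 of the 7 (edgeR), against 26.9% of all genes tested. Rara, which encodes the retinoic acid receptor alpha, had 17.8 ± 2.03 CPM on western diet and 22.7 ± 3.06 CPM on chow (SD, n = 5 each, log2 fold change -0.35, edgeR adjusted p = 0.0313). The Rara call did not hold by limma-voom, nor with any of western diet cage 4 mouse 4 or 5 and chow mouse 1, 3 or 5 left out (adjusted p up to 0.0953 over the alternatives).

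**Figure D4:**
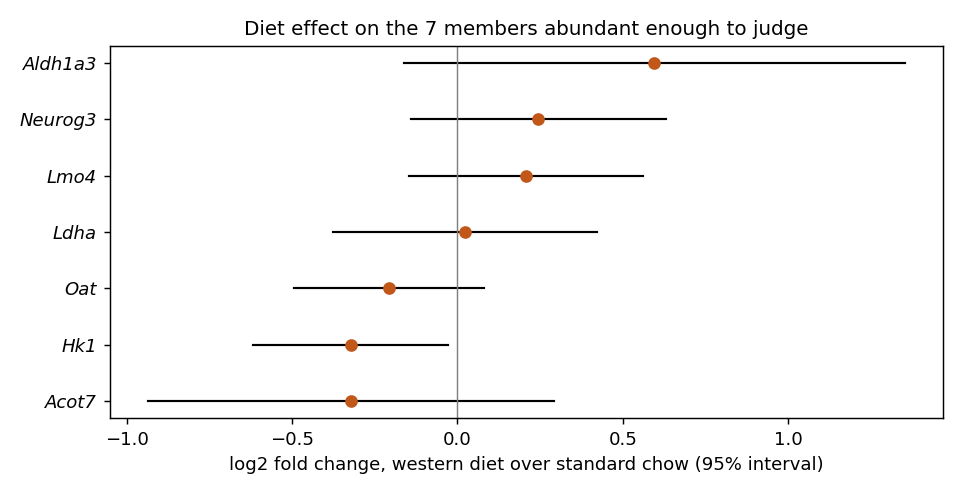
Log2 fold change of western diet over chow with its 95% interval from the edgeR fit (lines) for the 7 genes abundant enough to judge, ordered by the estimate. Each interval but that of Hk1 crosses 0, before any adjustment for multiple tests, and Aldh1a3 has the widest interval, from -0.16 to 1.35.

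Neurog3 (ENSMUSG00000044312, chromosome 10, 62133090 to 62134763, plus strand) encodes the transcription factor that commits pancreatic progenitors to an endocrine fate and is then silenced in most mature cells. It had 3.48, 2.67, 2.67 and 3.22 CPM in mice 1, 2, 5 and 4 of cage 4 and 4.48 CPM in the cage 2 mouse on western diet, against 3.12, 2.37, 2.92, 2.74 and 2.88 CPM in chow mice 1 to 5. The 3 highest libraries were on western diet, led by the cage 2 mouse, and the lowest was on chow, with overlap between. The log2 fold change was 0.25 ± 0.18 (SE, edgeR adjusted p = 0.418), with a 95% interval of the fold from 0.907 to 1.55. Without the cage 2 mouse it was 0.11 (edgeR adjusted p = 0.755).

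Neurog3 lies beside a more abundant gene. Its exons share 273 of 1674 bases with Fam241b on the opposite strand, which had 19.8 CPM on western diet and 18.8 CPM on chow. The strand setting of the counting was not given in the sources used here, so reads from the shared bases cannot be told apart.

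Of other factors of endocrine progenitors, the 3 that fell by edgeR stay on in mature islets and were far more abundant than Neurog3. Of 10 tested, 0 rose and 3 fell by edgeR, against 5.27% and 5.5% of all genes tested. DESeq2 called 3 of the factors lower and limma-voom 2. By edgeR 5 of the 10 had an unadjusted p under 0.05, against 26.9% of all genes tested. Insm1, a zinc finger factor of endocrine differentiation, had 340 ± 30.0 CPM on western diet and 402 ± 9.0 CPM on chow (SD, n = 5 each, log2 fold change -0.24, edgeR adjusted p = 0.0111). Rfx6 fell by 0.21 and Nkx2-2 by 0.23 on the log2 scale, and both are also needed in mature beta cells. The Rfx6 call did not hold with any of western diet cage 4 mouse 1, 2 or 4 and chow mouse 1, 2 or 3 left out (edgeR adjusted p up to 0.141 over the alternatives). The Nkx2-2 call did not hold by limma-voom or without robust moderation, nor with any of western diet cage 4 mouse 2, 4 or 5 and chow mouse 1, 2, 3 or 4 left out (adjusted p up to 0.115).

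Gast (ENSMUSG00000017165, chromosome 11, 100334407 to 100336996, plus strand) encodes gastrin, a stomach hormone that is made in the fetal pancreas and has been detected again in islets of diabetic animals. It had 2, 4, 3 and 1 reads in mice 1, 2, 5 and 4 of cage 4 and 13 reads in the cage 2 mouse on western diet, against 1, 8, 3, 4 and 12 reads in chow mice 1 to 5. In 5 of 10 libraries it was at or under the limit of 3 counts. The sums were 23 reads on western diet and 28 on chow, with 1 mouse on each diet holding a large share. Changes of Gast were not detectable at this depth.

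Cck (ENSMUSG00000032532, chromosome 9, 121489824 to 121495694, minus strand) encodes cholecystokinin, a gut hormone that islets of obese mice can make. It had 3, 0, 1 and 4 reads in mice 1, 2, 5 and 4 of cage 4 and 0 reads in the cage 2 mouse on western diet, against 1, 0, 0, 0 and 5 reads in chow mice 1 to 5. In 8 of 10 libraries it was at or under 3 counts, which is 0.126 to 0.182 CPM and bounds its level there. Only 1 library on each diet exceeded the limit.

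The receptors for these hormones were low too. Cckar, the cholecystokinin receptor of acinar cells, had 6 to 47 reads per library on western diet and 5 to 42 on chow. The western diet mouse with 47 reads, cage 4 mouse 5, also had the highest acinar marker sum, 7635 CPM. That sum ranged over 1050 to 7635 CPM on western diet and 895 to 3785 CPM on chow. Its part in the Cckar values was not tested. Cckbr, the gastrin receptor, was at 0 in 4 western diet and 3 chow libraries. Among 8 tested receptor and hormone-processing genes 0 were called by edgeR, DESeq2 or limma-voom, against 10.8% of all genes tested by edgeR. At an unadjusted p under 0.05 there were 2, against 26.9% of all genes tested (edgeR).

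Of 23 other disallowed genes tested, 1 rose and 0 fell by edgeR, against 5.27% and 5.5% of all genes tested. Their median log2 fold change was -0.02. At an unadjusted p under 0.05 there were 5, against 26.9% of all genes tested. DESeq2 and limma-voom each called 1 higher and 0 lower. The gene was C1qbp, which encodes a mitochondrial matrix protein, with 28.3 ± 2.20 CPM on western diet and 23.9 ± 0.900 CPM on chow (SD, n = 5 each, edgeR adjusted p = 0.0272). The C1qbp call did not hold with any of western diet cage 4 mouse 1 or 4 and chow mouse 1, 2 or 3 left out (edgeR adjusted p up to 0.0855 over the alternatives). Smad3, which transmits TGF-beta signals, had 4.22 ± 1.60 CPM on western diet and 6.12 ± 0.495 CPM on chow and was not called (log2 fold change -0.53, edgeR adjusted p = 0.0782). Without western diet cage 4 mouse 1 Smad3 was called lower (-0.80, edgeR adjusted p = 0.00326).

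Of 10 other dedifferentiation markers tested, 1 rose and 0 fell by edgeR, against 5.27% and 5.5% of all genes tested. Their median log2 fold change was -0.05. DESeq2 called 2 higher, limma-voom 1. By edgeR 3 of the 10 had an unadjusted p under 0.05, against 26.9% of all genes tested. Gc, the vitamin D-binding protein gene, which is also an alpha cell marker, had 128 ± 7.66 CPM on western diet and 108 ± 12.5 CPM on chow (SD, n = 5 each, log2 fold change 0.26, edgeR adjusted p = 0.0267). The Gc call did not hold with any of western diet cage 4 mouse 1 or 4 and chow mouse 1 or 5 left out (edgeR adjusted p up to 0.0774 over the alternatives). Of 9 tested alpha cell markers 2 rose, Gc and Ttr, against 5.27% of all genes tested. An unadjusted p under 0.05 was seen for 4 of the 9 (edgeR), against 26.9% of all genes tested. The summed alpha marker level was 10466 to 14279 CPM on western diet and 11084 to 16164 CPM on chow. The Ttr call did not hold with any of western diet cage 4 mouse 1, 2 or 4 and chow mouse 3, 4 or 5 left out. The part of alpha cells in the Gc values was not tested. Serpina7, the thyroxine-binding globulin gene, had 29.2 ± 11.6 CPM on western diet and 16.7 ± 2.60 CPM on chow and was not called (log2 fold change 0.81, edgeR adjusted p = 0.102, called in 3 of 19 alternatives).

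Of 20 beta cell identity genes tested, 2 rose and 5 fell by edgeR, against 5.27% and 5.5% of all genes tested. DESeq2 called 2 of the 20 higher and 7 lower and limma-voom 2 and 6. By edgeR 11 of the 20 had an unadjusted p under 0.05, against 26.9% of all genes tested. The lists can share genes, such as Gc, so the counts of different lists are not separate results. Slc2a2, the glucose transporter GLUT2 of mouse beta cells, had 698 CPM on western diet and 1016 CPM on chow (log2 fold change -0.54, edgeR adjusted p = 0.00748). G6pc2, a glucose-6-phosphatase subunit of islets, had 3762 CPM on western diet and 2723 CPM on chow (log2 fold change 0.47, edgeR adjusted p = 3.8e-05).

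Within a diet, the variation between mice of each of the 5 genes of at least 5 CPM was matched to that of 10388 protein-coding genes, as Pearson's r of log2 CPM after subtracting the diet means over 10 libraries. The closest genes were Polr2i and Sema4b for Ldha (r of 0.91 each), Otud1 (0.97) and Phtf1 (0.92) for Hk1, and Kdm5c (0.98) and Prmt7 (0.96) for Aldh1a3. For Oat they were Zfp958 (0.95) and Plekhg2 (0.94), and for Lmo4 Stx4a (0.94) and Dync1li1 (0.93). These are the highest of many correlations over few libraries, which share depth and cell composition, and are given as a description.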

How the data were processed

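Gene expression was measured by RNA-seq in 10 islet libraries. The authors' deposited table holds raw read counts per gene, FPKM per sample and the authors' own log2 fold changes and p-values, per the file headers. Per the submitters' processing notes, STAR 2.5, HTSeq 2, DESeq2 and the builds mm10 and GRCm38 were used. The strand setting was not given in the sources used here. The 10 columns of normalized values per sample were not used.

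The counts were tested with edgeR 4.0.16 (R 4.3.3): filterByExpr with a minimum count of 10, TMM factors, a robust quasi-likelihood model with no covariate and Benjamini-Hochberg adjustment over 15104 genes, with calls at an adjusted p under 0.05. Standard errors are log2 fold changes over the square root of F, and the intervals are 95%. RPKM are CPM per kilobase of the deposited gene length. DESeq2 1.42.0 and limma-voom (limma 3.58.1) served as alternatives, beside other factors, filters, a mouse-number block and leaving out each mouse. The tests were checked on simulated data. Genes not tested, or under a mean of 1 CPM on both diets, were too low to judge. The members and lists were chosen with earlier results of these data known. Named genes were the members, up to 3 tested genes of at least 1 CPM with the smallest p-values per list and 7 set counterparts. Some are not reported here and stayed in the fits and list counts. Replicates are separate mice.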

Additional observations from a re-analysis of the deposited data

Results flagged for a closer look

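Sets of 5 libraries, of a gene or of the Ldha to Ldhb ratio, were examined for a sample far from the others. Of 22 sets 2 held one. Chance alone gives about 1 in 20 where values follow a normal distribution, which the few reads of Cck do not. Acot7 was 0.915 CPM in chow mouse 3, far below the other 4 chow libraries, which had 2.09 to 2.43 CPM. Cck was 0.212 CPM in chow mouse 5, from 5 reads, while the other 4 chow libraries had 0 or 1 read.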

How the results depend on the processing

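None of the 7 genes that could be judged was called under any of the 19 alternatives tried. Hk1, Aldh1a3, Neurog3, Oat, Acot7 and Lmo4 kept their direction in all of those in which they were tested; Neurog3 and Acot7 gave no value under a minimum mean of 5 CPM. The Ldha log2 fold change turned negative with mouse number as a replicate block (-0.0805) and ranged over -0.0868 to 0.239 when each mouse was left out. The cause was not tested. The count of all genes called was 1627, and 841 with the replicate block. DESeq2 gave 1948 and limma-voom 1477. Leaving out each mouse gave 938 to 1813, with 938 without chow mouse 1, 985 and 1055 without western diet cage 4 mice 4 and 5, and 1050 without chow mouse 3. Correlations between same-numbered mice were 0.03, 0.04, 0.08, 0.11 and -0.13, within the -0.27 to 0.26 of the other pairs. So few values cannot exclude a pairing. The labels name none between the diets, whose mice were in different cages. With that block the log2 ratio of Ldha to Ldhb differed by 0.09. It differed by 0.04 to 0.28 when each mouse was left out. Depth limits Gast, Cck and Slc16a1, and Acot7 to a lesser degree.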
